A study of Mus musculus with 10 samples.

Results

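Genes that mark the striatum or the thalamus were examined in hippocampal RNA, to describe in single libraries how much of these markers each dissected sample held. The 9 genes were 7 striatal markers (Drd1, Tac1, Drd2, Adora2a, Penk, Ppp1r1b and Rgs9) and 2 thalamic markers (Tcf7l2 and Prkcd), matched by Ensembl identifier among the 56884 genes of the count table. They were chosen by symbol after the levels and fold changes measured in these same libraries were known, with no threshold on either. Their levels and fold changes are therefore given as a description. All 9 genes passed the filter on low counts, which left 17622 genes to be tested.

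The libraries came from hippocampi of 10 female P301S mice (the PS19 line, labelled hTau), all of which carry human mutant Tau driven by the mouse Prnp promoter. The study's methods describe ovary-intact females. In 5 of them SILASTIC tubing holding 10 mm of DHT powder was placed under the skin from 6 months of age for 12 weeks, and empty (void) tubing was placed in the remaining 5. The mice were 9 to 9.5 months old at collection, and each gave 1 library. The library numbers of the void group all precede those of the DHT group, and an effect of that order cannot be told apart from one of treatment. Libraries are named here by treatment and mouse number, so that void 5 and DHT 5 are different animals. Total counts ranged from 27188854 to 47113661 per library. Levels are in CPM, the reads of a gene scaled to the same library size in every mouse, with edgeR's TMM factors. Fold changes are DHT over void on the log2 scale with their standard error (SE), and p values are those of edgeR's quasi-likelihood test, adjusted over all genes tested.

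The striatum is built mostly of GABAergic projection neurons that fall into a pair of populations. One carries the D1 dopamine receptor and makes substance P, and the other carries the D2 dopamine receptor and an adenosine receptor and makes enkephalin. Both use DARPP-32 and RGS9 to shape the response to dopamine. The thalamus and the adjoining habenula lie beneath the hippocampus, and their neurons are marked by the Wnt effector TCF7L2, with protein kinase C delta in thalamic relay neurons. None of these genes is exclusive to its region: hippocampal interneurons make enkephalin, for example, and DARPP-32 is also known from choroid plexus epithelium.

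The labelled tissue carried its own markers in every library. All 18 genes of a list of hippocampal principal neuron markers were tested, and 0 differed between DHT and void in edgeR (0 at an unadjusted p under 0.05) and 0 in DESeq2. Zbtb20, a transcription factor of hippocampal pyramidal and granule neurons, was highest of the list at a mean of 756 CPM. It was followed by Neurod6 at 229 CPM and by Prox1, which marks dentate granule cells, at 157 CPM. Void 5 was lowest of the 10 libraries for 10 of the 18 genes, where it was lowest for 11.2% of all genes tested. Zbtb20 was at 506 CPM in void 5 and between 621 and 931 CPM in the other 9 libraries.

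Per kilobase of annotated exon, the members fell into 3 tiers. Ppp1r1b had a mean of 19.2 CPM per kilobase, Penk 14.4 and Prkcd 7.16. The ranges over libraries of these 3 genes overlapped between neighbours in the order (11.1 to 28.2, 11.8 to 17.2 and 3.68 to 12.7). Tac1 (1.75), Drd1 (1.66), Rgs9 (1.63), Drd2 (1.33) and Tcf7l2 (1.26) formed a middle tier whose ranges overlapped. Adora2a was lowest at a mean of 0.447 CPM per kilobase, and its range of 0.315 to 0.554 lay below that of every other member.

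Promoter sequences were at hand for 6 of the 9 members, as 9 windows of 250 bases before to 50 bases after a RefSeq start site (GRCm38.p6). Those of Drd2, Prkcd and Tcf7l2 are shown because these 3 genes varied most over the 10 libraries, with coefficients of variation of 57.6%, 35.3% and 37.3%. They are written 5′ to 3′ on the strand of the gene. The last 50 bases of the Prkcd window were found in a GENCODE M21 transcript of that gene. Those of the Drd2 and Tcf7l2 windows were not found in any transcript of their gene. Capitals mark 3 motifs, searched on both strands, whose matches can overlap. The GC box was read as GGGCGG, found in 35.7% of the 32851 promoter windows of the table. The core of the cAMP response element was read as TGACG, found in 20.8% of windows. The box bound by the TATA-binding protein was read as TATAAA, found in 13.6% of windows.
Drd2, chr9:49340153-49340452, plus strand: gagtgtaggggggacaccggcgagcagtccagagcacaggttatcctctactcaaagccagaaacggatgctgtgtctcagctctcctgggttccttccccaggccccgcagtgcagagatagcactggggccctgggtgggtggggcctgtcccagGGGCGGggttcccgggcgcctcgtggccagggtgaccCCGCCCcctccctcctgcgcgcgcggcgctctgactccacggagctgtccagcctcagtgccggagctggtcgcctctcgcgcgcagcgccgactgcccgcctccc
Prkcd, chr14:30626159-30626458, minus strand: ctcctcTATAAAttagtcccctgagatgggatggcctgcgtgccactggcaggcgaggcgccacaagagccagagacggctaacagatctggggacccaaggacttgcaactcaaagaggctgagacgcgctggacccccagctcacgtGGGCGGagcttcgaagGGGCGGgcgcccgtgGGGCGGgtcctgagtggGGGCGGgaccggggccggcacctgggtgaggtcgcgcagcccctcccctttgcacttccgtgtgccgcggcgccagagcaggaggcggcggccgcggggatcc
Tcf7l2, chr19:55741560-55741859, plus strand: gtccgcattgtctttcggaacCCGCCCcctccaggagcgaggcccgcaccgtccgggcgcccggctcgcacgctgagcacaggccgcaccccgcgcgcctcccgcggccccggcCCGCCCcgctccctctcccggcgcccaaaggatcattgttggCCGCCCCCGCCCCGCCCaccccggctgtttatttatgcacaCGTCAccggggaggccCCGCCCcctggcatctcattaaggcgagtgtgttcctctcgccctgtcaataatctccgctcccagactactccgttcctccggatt
The Drd2 window held 2 GC boxes, that of Prkcd 4 and that of Tcf7l2 6. That of Prkcd also held 1 TATAAA, and that of Tcf7l2 held 1 TGACG. The full cAMP response element, TGACGTCA, was found in 1.8% of all windows and in none of the 9 windows of the members. The nuclear receptor hexamer AGGTCA was found in 16.3% and likewise in none of the 9. The androgen receptor hexamer AGAACA, found in 19% of all windows, was found in the second windows of Prkcd and Tcf7l2, at chr14:30610261-30610560 and chr19:55895071-55895370, and in no other. These matches are a description of the letters and not of binding.

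**Figure D1:**
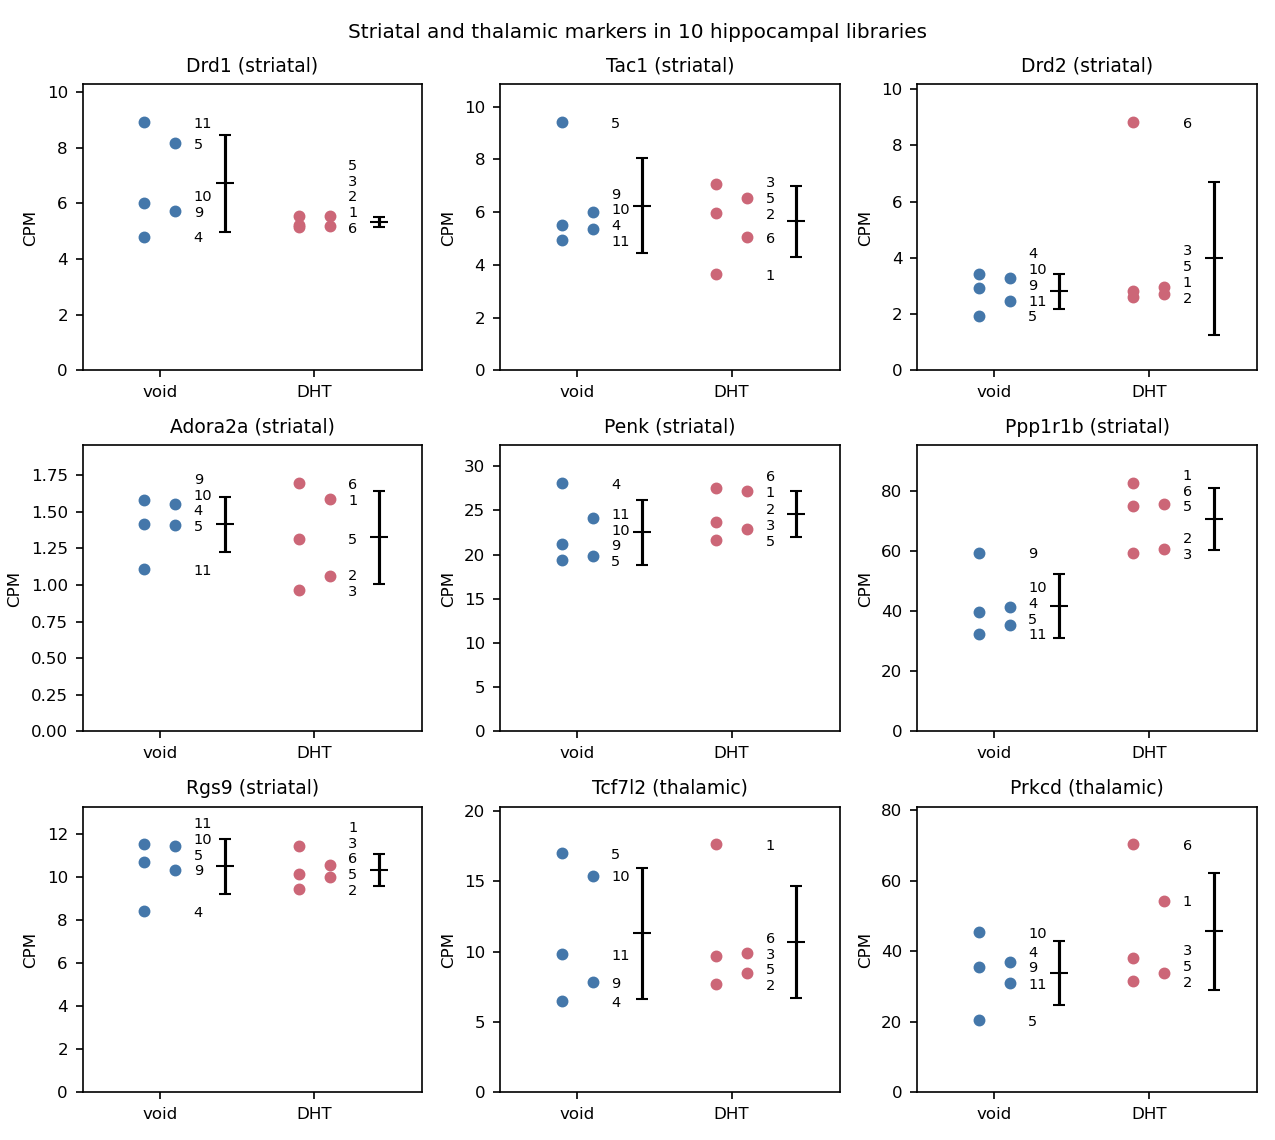
CPM of the 9 members (y axis, from 0, a scale per gene) in the void and DHT groups (x axis), with 1 point per library, mouse numbers beside the points in the order of their values, and bars for mean ± SD (n = 5). Drd2 in DHT 6 lies at 8.84 CPM, above the 1.95 to 3.45 CPM of the other 9 libraries, while Ppp1r1b is higher in the DHT group.

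Drd2 (ENSMUSG00000032259.9), the inhibitory dopamine receptor of the enkephalin population, stood out in a single library. It was at 3.28 CPM in void 10, 2.46 in void 11, 3.45 in void 4, 1.95 in void 5 and 2.92 in void 9. In the DHT group it was at 2.7 CPM in DHT 1, 2.62 in DHT 2, 2.97 in DHT 3, 2.81 in DHT 5 and 8.84 in DHT 6. DHT 6 was thus 2.57 times the next library, and the other 4 DHT libraries lay within the void range. Between DHT and void the log2 fold change was 0.50 (SE 0.34, adjusted p = 0.530 in edgeR), and without DHT 6 it was -0.019.

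Adora2a (ENSMUSG00000020178.7), the adenosine receptor that the same striatal neurons carry, did not share this spread. It was at 1.55, 1.11, 1.42, 1.41 and 1.58 CPM in void 10, 11, 4, 5 and 9, and at 1.58, 1.06, 0.964, 1.32 and 1.7 CPM in DHT 1, 2, 3, 5 and 6. DHT 6 was again the highest library, with DHT 1 and void 9 next at 1.58 CPM. With 37 to 67 reads per library, counting error alone gives a coefficient of variation of 14.3%, and the observed one was 18.3%. Its log2 fold change was -0.10 (SE 0.19, adjusted p = 0.871 in edgeR).

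Penk (ENSMUSG00000045573.10), the enkephalin precursor, was the steadiest of the abundant members. It ranged from 19.3 CPM in void 5 to 28.1 in void 4 within the void group, with a median of 21.2. In the DHT group it ranged from 21.6 in DHT 5 to 27.5 in DHT 6, with a median of 23.7. The groups overlapped over most of their range, and the log2 fold change was 0.12 (SE 0.11, adjusted p = 0.657 in edgeR).

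Drd1 (ENSMUSG00000021478.7), the stimulatory dopamine receptor of the substance P population, was spread in the void group and tight in the DHT group. It was at 6.01, 8.93, 4.80, 8.15 and 5.71 CPM in void 10, 11, 4, 5 and 9. The 5 DHT libraries lay between 5.15 and 5.54 CPM. Void 11 and void 5 were above all others. Its fitted log2 difference was -0.33 (SE 0.16, adjusted p = 0.310 in edgeR).

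Tac1 (ENSMUSG00000061762.13), the precursor of substance P, was highest in void 5 at 9.43 CPM, with 5.50, 4.94, 5.37 and 6.02 in void 10, 11, 4 and 9. In the DHT group it was at 3.66 CPM in DHT 1, 5.97 in DHT 2, 7.06 in DHT 3, 6.52 in DHT 5 and 5.06 in DHT 6. Outside void 5, the void libraries lay within the DHT range. With a log2 fold change of -0.14 (SE 0.21, adjusted p = 0.814 in edgeR), the direction turned without void 5, to 0.054.

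Rgs9 (ENSMUSG00000020599.14) encodes a regulator that speeds the shutdown of G protein signals from dopamine and opioid receptors. It varied least of the 9 members, from 8.44 to 11.6 CPM with void and from 9.45 to 11.4 CPM with DHT. Its coefficient of variation over 10 libraries was 9.44%, against 57.6% for Drd2. The fitted log2 difference was -0.02 (SE 0.10, adjusted p = 0.947 in edgeR), and leaving out void 10 or DHT 2 turned its sign.

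Ppp1r1b (ENSMUSG00000061718.13), which encodes the phosphatase inhibitor DARPP-32, was the single member that passed the test. It was at 41.4 CPM in void 10, 32.4 in void 11, 39.7 in void 4, 35.4 in void 5 and 59.4 in void 9. With DHT it was at 82.6 CPM in DHT 1, 60.4 in DHT 2, 59.2 in DHT 3, 75 in DHT 5 and 75.6 in DHT 6. Void 9 reached the lowest DHT library, and the other 4 void libraries lay below the whole DHT group. The mean rose from 41.7 ± 10.5 CPM (SD, n = 5) to 70.6 ± 10.2 CPM (SD, n = 5), which edgeR fitted as 0.76 on the log2 scale (SE 0.15, adjusted p = 0.0156). Thus 1 of 9 members was higher with DHT, where 5.22% of all genes tested were, and 0 were lower, where 0.261% were. At an unadjusted p under 0.05, which 17.4% of all genes passed, 1 member was higher and 0 lower, and in DESeq2 1 was higher and 0 lower. In bulk tissue, a change in the number of cells that express a gene and a change in RNA per cell cannot be told apart.

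The call for Ppp1r1b was sensitive to single libraries. The adjusted p was 0.0531 without void 11 and 0.0503 without DHT 1, at log2 fold changes of 0.66 and 0.66. Leaving out both void 5 and DHT 6, a setting chosen after the data were seen, gave 0.68 with an adjusted p of 0.0612.

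Markers of choroid plexus epithelium also differed with treatment. Of the 14 genes of the choroid plexus list 6 were called higher with DHT, where 5.22% of all genes tested were. All 14 had a positive log2 fold change, and none was at 0 in any library. Their summed level was 354 to 3241 CPM with void and 3944 to 5709 CPM with DHT, and the mean log2 CPM over the list was 5.76 in void 9 against 1.60 to 4.59 in the other void libraries. Void 9 was also the void library with the most Ppp1r1b. Void 4 had a higher plexus mean than void 10 (4.59 against 3.41) and less Ppp1r1b (39.7 against 41.4 CPM). In the DHT libraries that mean was 6.18 to 6.86. DHT 1 was highest of its group for both. DHT 5 had the lowest plexus mean of the group with Ppp1r1b at 75 CPM, and DHT 3 had 6.40 with the lowest Ppp1r1b of the group, 59.2 CPM. With the plexus mean in the fit, the log2 fold change of Ppp1r1b fell from 0.76 to 0.26, while its SE was 0.15 before and 0.17 after (adjusted p = 0.855 in edgeR). There 0 genes were higher and 0 lower with DHT over all 17622, with 950 and 223 at an unadjusted p under 0.05. The plexus mean had r = 0.79 with treatment group, so this fit cannot tell plexus content from treatment. The part of choroid plexus content in the value of Ppp1r1b was not tested.

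Microglial markers also moved with treatment. Of 12 genes on the microglia list 10 were called higher with DHT, where 5.22% of all genes tested were. None of the 12 was at 0, and their summed level was 547 to 661 CPM with void and 819 to 1307 CPM with DHT. In void 9 the summed level was 569.6 CPM, within the void range. The part of microglial content in the value of Ppp1r1b was not tested.

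**Figure D2:**
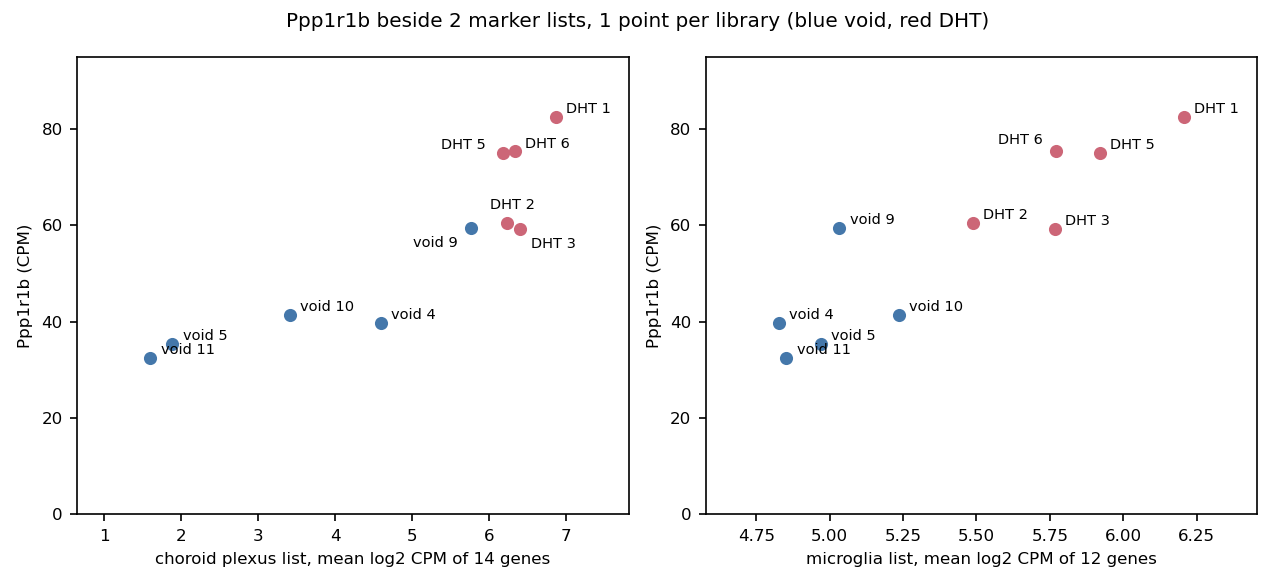
Ppp1r1b (y axis, CPM, from 0) against the mean log2 CPM of the choroid plexus list (left) and of the microglia list (right), with 1 point per library, blue for void and red for DHT. Void 9, at 59.4 CPM, is the void library nearest the DHT group on the choroid plexus axis (5.76 against 6.18 to 6.86) and among the void libraries on the microglia axis (5.03).

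The genes most like Ppp1r1b over the 10 libraries, after the mean of each group was subtracted, were Cd82 (r = 0.98), Fuca1 (0.97), Tmem176b (0.96), Arsg (0.96) and Spint2 (0.96). Cd82 encodes a tetraspanin and Fuca1 a lysosomal fucosidase. Cd82 was at 29.5 CPM in void 9, against 15.9 to 20.1 CPM in the other void libraries and 30.0 to 38.5 CPM with DHT. Libraries of 1 tissue share depth and composition, so these values describe likeness only.

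Tcf7l2 (ENSMUSG00000024985.21), a transcription factor of Wnt signalling, divided the libraries across treatment. It was at 15.4 CPM in void 10, 9.86 in void 11, 6.51 in void 4, 17.0 in void 5 and 7.85 in void 9. With DHT it was at 17.7 CPM in DHT 1, 7.67 in DHT 2, 9.72 in DHT 3, 8.5 in DHT 5 and 9.91 in DHT 6. The 3 highest libraries, void 5, void 10 and DHT 1, lay between 15.4 and 17.7 CPM, and the other 7 lay between 6.51 and 9.91 CPM. Its log2 fold change was -0.08 (SE 0.29, adjusted p = 0.939 in edgeR). It turned positive when void 5 (0.12), void 10 (0.057) or DHT 2 (0.021) was left out.

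Prkcd (ENSMUSG00000021948.18), a calcium-independent protein kinase C, followed Tcf7l2 in some of these libraries and not in others. It was at 45.4 CPM in void 10, 31.0 in void 11, 36.8 in void 4, 20.4 in void 5 and 35.6 in void 9. With DHT it was at 54.3 CPM in DHT 1, 31.5 in DHT 2, 37.9 in DHT 3, 33.8 in DHT 5 and 70.4 in DHT 6. Void 10 and DHT 1 were high for both thalamic members. Void 5 was lowest of all for Prkcd and second highest for Tcf7l2, while DHT 6 was highest for Prkcd and, at 9.91 CPM, among the 7 lower libraries for Tcf7l2. The fitted log2 difference was 0.43 (SE 0.24, adjusted p = 0.417 in edgeR), and it was 0.22 without DHT 6 and 0.083 without both void 5 and DHT 6.

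**Figure D3:**
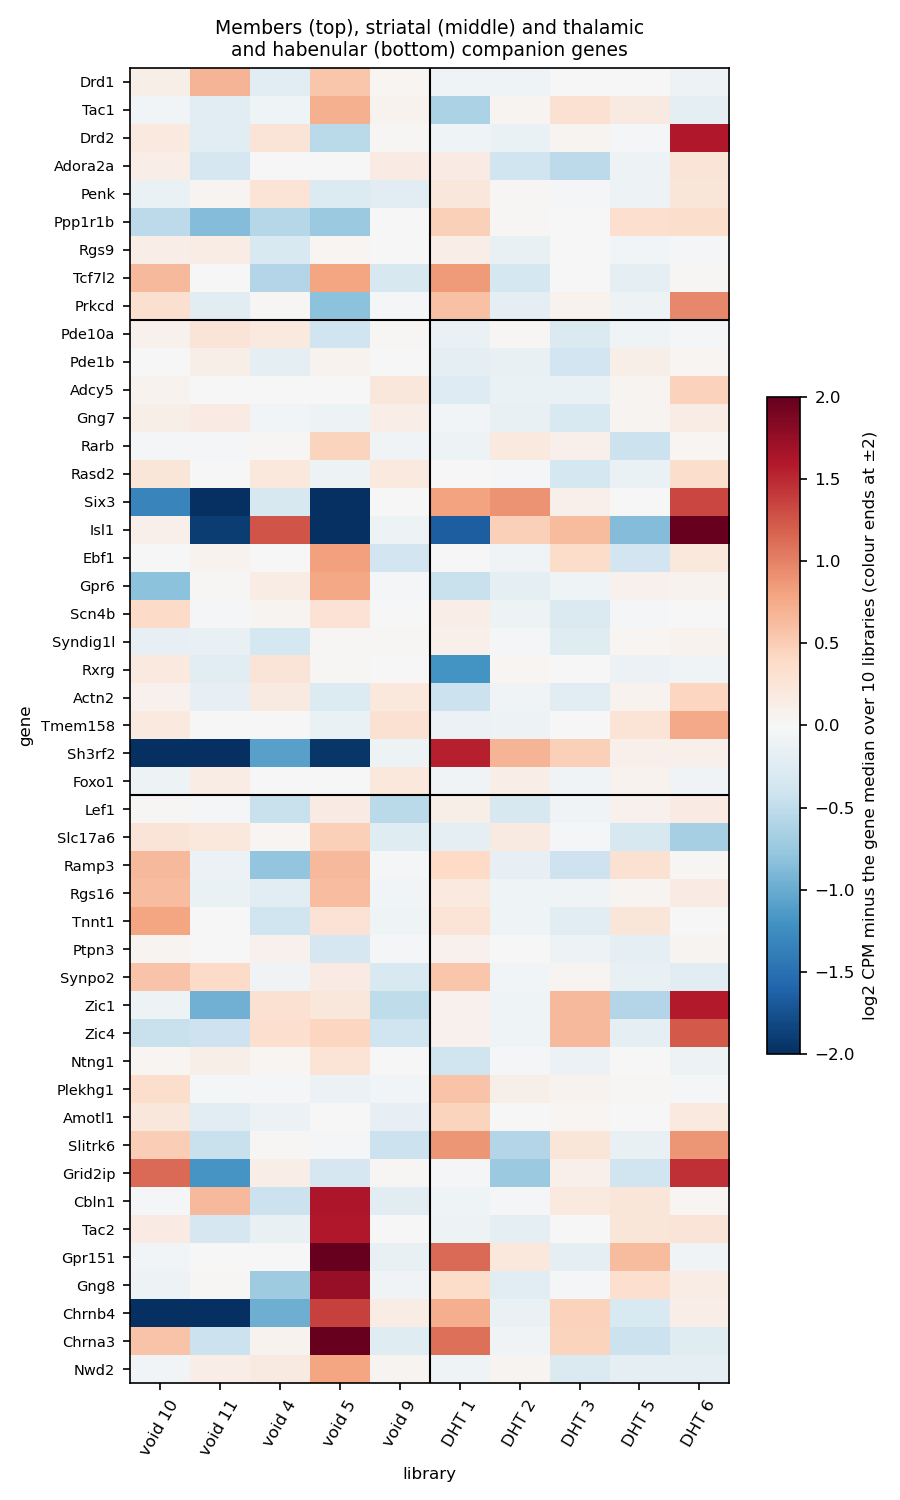
Colour shows log2 CPM minus the median of each gene over 10 libraries (colour ends at ±2), for the 9 members (top rows), striatal companion genes (middle) and 21 thalamic and habenular companion genes (bottom), with libraries as columns and a line between void and DHT. Void 5 is red from Cbln1 to Nwd2 at the bottom, and DHT 6 is red in Drd2, Prkcd, Isl1, Zic1 and Zic4.

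Companion genes that the member list did not hold were read in the same libraries. Of 23 genes on a list of thalamic and habenular markers 21 were tested, and 0 of them were higher and 0 lower with DHT in edgeR. At an unadjusted p under 0.05, 0 were higher and 3 lower, and DESeq2 called 0 higher and 1 lower. Their median log2 fold change was -0.11, against 0.01 over all genes tested. Ptpn3, Nwd2 and Ntng1 were the most abundant, at means of 111, 58.7 and 57.1 CPM.

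Void 5 was the highest library for 11 of these 21 genes, against 14.2% of all genes tested. In 4 of the 21 it was at least 2 times the next library, as it was in 29 of the 17622 genes tested. Gpr151, an orphan receptor of the habenula, was at 8.34 CPM in void 5 and at 0.607 to 1.59 CPM in the other libraries. The nicotinic receptor subunit gene Chrna3 was at 5.69 CPM in void 5 and at 0.569 to 1.75 CPM elsewhere. Tac2, the neurokinin B precursor, was at 7.80 CPM in void 5 and at 1.98 to 3.04 CPM elsewhere, and Gng8 at 1.98 and 0.317 to 0.738 CPM. Pou4f1, a transcription factor of habenular neurons that fell under the count filter, had 186 reads in void 5, 34 in DHT 1 and 1 to 12 in the other 8 libraries.

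Void 5 thus combined high Tcf7l2 and Tac1 with the highest levels of habenular genes and the lowest Prkcd. Void 10 and DHT 1, the other libraries with high Tcf7l2, had higher Prkcd and lower Gpr151 and Chrna3 than void 5. After void 5, DHT 1 was the next highest library for Gpr151 (1.58 CPM) and Chrna3 (1.75 CPM). Void 10 was at 0.664 and 1.18 CPM for these genes. Ramp3, also on the thalamic list, was highest in the libraries with high Tcf7l2. It was at 3.71 CPM in void 5, 3.69 in void 10, 3.11 in DHT 1 and 1.33 to 2.90 elsewhere. Among thalamic markers, Rgs16 was equally high in void 10 and void 5 (10.1 CPM in each, with 7.51 in DHT 1), and Synpo2 was alike in void 10 and DHT 1 (18.9 and 18.7 CPM, with 14.2 in void 5). Tnnt1 was highest in void 10 at 2.73 CPM, with void 5 next at 1.92 CPM. DHT 1 was highest for Amotl1 (62.4 CPM) and Plekhg1 (55.2 CPM), with void 10 next at 53.9 and 47.8 CPM, and level with DHT 6 for Slitrk6 (3.22 CPM in each). Ntng1 went the other way, lowest in DHT 1 at 43.4 CPM, with 58.9 in void 10 and 69.5 in void 5. Slc17a6 was at 29.0 CPM in DHT 1, 39.7 in void 10 and 46.1 in void 5, and lowest in DHT 6 at 21.0 CPM. Gbx2, a transcription factor of the developing thalamus, had 15 reads in DHT 1 and 0 to 4 in every other library, too few for the test. DHT 1 was the highest library for 13.5% of all genes tested. It was highest for all 14 choroid plexus genes and for 5 of the 8 tested genes of newly formed oligodendrocytes. These oligodendrocytes are also known to use TCF7L2. The part of any of these cells in the level of Tcf7l2 was not tested.

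Genes most like the mean of Tcf7l2 and Prkcd over the 10 libraries, after group means were subtracted, were Fyco1 (r = 0.95), Amotl1 (0.91), Cyp4f17 (0.90), Slitrk6 (0.90) and Wdfy4 (0.87). Tcf7l2 and Prkcd themselves had r = 0.076 after the same subtraction, so their mean is not a pattern that these genes share. Amotl1 and Slitrk6 were also on the thalamic list, which was chosen with earlier results of these data known. Slitrk6 was at 3.22 CPM in both DHT 1 and DHT 6 and at 2.44 CPM in void 10, with 1.14 to 2.05 CPM in the remaining 7 libraries.

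Of 22 striatal companion genes, 21 were matched and 18 tested. Gng7, Adcy5 and Pde1b, which belong to the cyclic AMP signalling of striatal neurons, were the most abundant at means of 167, 154 and 112 CPM. One gene, Sh3rf2, was higher with DHT (log2 fold change 2.13, SE 0.51, adjusted p = 0.0317 in edgeR). It ranged from 0.180 to 1.52 CPM with void, highest in void 9, and from 1.76 to 4.92 CPM with DHT, highest in DHT 1. These are the libraries that were also highest of their groups for the choroid plexus list. Thus 1 of the 18 was higher, where 5.22% of all genes tested were, and none was lower. Of the 18, 13 had a negative log2 fold change, and the median was -0.10.

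DHT 6 was highest for 6 of these 18 genes, against 19.2% of all genes tested, and for 3 of the 9 members (Drd2, Adora2a and Prkcd). Isl1, a transcription factor of developing striatal and basal forebrain neurons, was at 2.14 CPM in DHT 6 and at 0.032 to 0.972 CPM in the other libraries. Six3 was at 6.31 CPM in DHT 6 and at 2.48 to 4.66 CPM in the other DHT libraries. With void it was at 0.192 to 2.45 CPM, lowest in void 5 and highest in void 9. The choroid plexus means of these void libraries were 1.88 and 5.76. DHT 1, with the highest plexus mean (6.86), had 4.34 CPM of Six3, and DHT 6 had a plexus mean of 6.33. The part of choroid plexus content in Six3 was not tested. Its log2 fold change of 1.75 (SE 0.51) missed the threshold (adjusted p = 0.0759 in edgeR). The remaining genes with their highest level in DHT 6 were Adcy5 (206 CPM), Rasd2 (77.1), Tmem158 (37.4) and Actn2 (21.5). On the thalamic and interneuron lists, DHT 6 was highest for Zic1 (102 CPM, against 17.3 to 53.3 elsewhere), Zic4 (14.3 against 4.43 to 9.57) and Slc32a1, the vesicular GABA transporter (111 against 38.6 to 69.2). Of the 12 interneuron genes, DHT 6 was highest for 4 and lowest for Vip (12.7 CPM), while Gad1 and Gad2 were highest in void 4. Lhx8, a marker of cholinergic basal forebrain neurons, had 11 reads in DHT 6 and 0 to 3 in each other library. On the same cholinergic list, Chat, Slc18a3 and Slc5a7 had the most reads in void 5 (26, 15 and 156), with 12, 9 and 60 in DHT 6.

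Other striatal companions were highest in void 5 and not in DHT 6. Ebf1, a transcription factor of striatal development, was at 8.56 CPM in void 5, 5.57 in DHT 6 and 3.68 to 6.22 CPM in the other 8 libraries. Rarb, a retinoic acid receptor, was at 7.92 CPM in void 5 and at 4.28 to 6.66 CPM elsewhere, and Gpr6, an orphan receptor, at 1.34 and 0.406 to 0.846 CPM. High Drd2 in DHT 6 and high Ebf1 in void 5 therefore occurred in different libraries.

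The genes most like Drd2 over the 10 libraries were Sp9 (r = 0.94), Ssh1 (0.93), Sox1ot (0.92), Tle3 (0.92) and Nbl1 (0.92), after group means were subtracted. Sp9 was at 16.0 CPM in DHT 6, 10.2 in void 4 and 4.67 to 8.19 CPM in the other 8 libraries, and Nbl1 at 104 CPM in DHT 6 and 37.4 to 64.6 CPM elsewhere. For the mean of all 7 striatal members they were Mbd6 (r = 0.98), Pomc (0.97), Epha10 (0.96), Atxn2l (0.96) and Slc52a2 (0.93). Pomc, the precursor of melanocortins and beta-endorphin, was at 6.40 CPM in DHT 6 and at 0.419 to 1.24 CPM in the other libraries. All 10 genes were highest in DHT 6, as were 19.2% of all genes tested. The patterns they were picked to resemble both peaked in DHT 6, so this follows largely from how they were picked.

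The 7 striatal members did not rise and fall together. Of their 21 pairs, 8 had a positive and 13 a negative r over the 10 libraries after group means were subtracted, with a median of -0.18. Drd1 and Tac1, which mark the same population, had r = 0.28, and Drd2 and Adora2a, which mark the other, had r = 0.55. Drd1 and Drd2 had r = -0.40. These values are a description, since the libraries share tissue and processing.

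**Figure D4:**
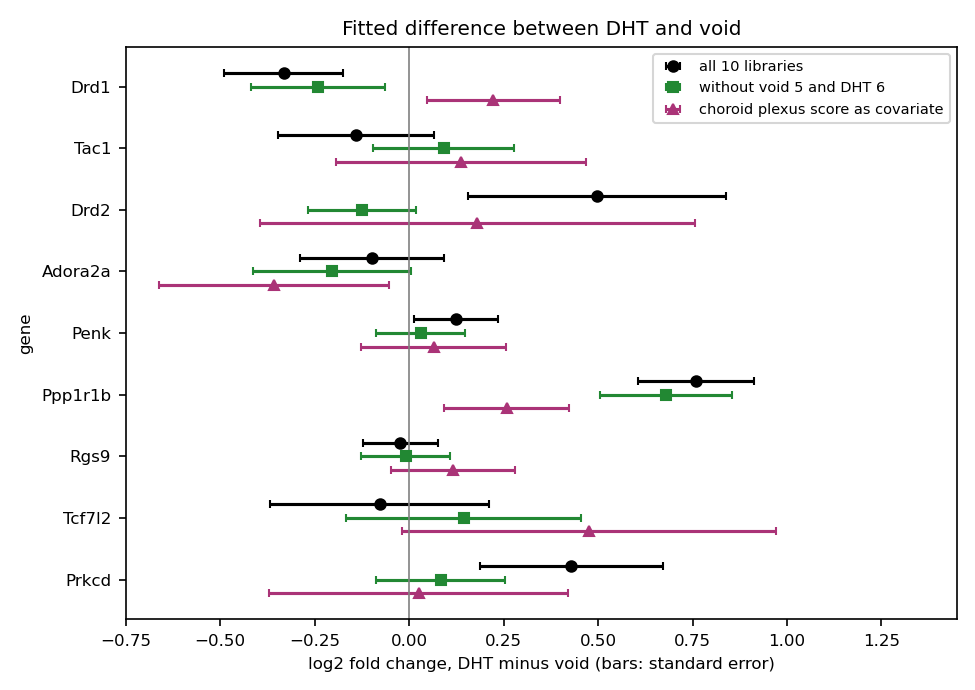
Fitted log2 fold change (x axis, DHT minus void, bars for the standard error) of the 9 members (y axis) with all 10 libraries (black circles), without void 5 and DHT 6 (green squares) and with the mean of the choroid plexus list in the fit (purple triangles). Drd2 moves from 0.50 to -0.12 without these libraries, and Ppp1r1b from 0.76 to 0.26 with the covariate.

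As groups, the members differed little between treatments. The mean log2 CPM over the 7 striatal members was 2.94 ± 0.05 in the void group (SD, n = 5) and 3.04 ± 0.15 in the DHT group (SD, n = 5), a difference of 0.10. That lay above the void SD and below the DHT SD, and Ppp1r1b had the largest log2 fold change of the 7, 0.76. The median over the same genes differed by -0.074, so that mean and median had opposite signs. DHT 6 was highest at 3.30, and the difference was 0.035 without it and 0.038 without void 5 and DHT 6. Over the 2 thalamic members it was 4.22 ± 0.30 with void and 4.40 ± 0.42 with DHT, a difference of 0.18, smaller than either SD. Single libraries moved this difference, to 0.040 without DHT 1, 0.097 without DHT 6, 0.11 without void 4, 0.29 without DHT 2 and 0.30 without void 10. Over all 9 members the median log2 fold change was -0.02, against 0.01 over all genes tested, with 4 positive and 5 negative. The groups overlapped in all 9 members, where all 5 DHT libraries lay above all 5 void libraries in 5.39% of genes tested and below in 0.88%.

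Receptors, ligands and enzymes that act with the members were also read, as a list of 23 genes of which 22 were tested. None was higher with DHT (0 at an unadjusted p under 0.05, 0 in DESeq2) and 1 was lower (4 and 3), where 0.261% of all genes tested were lower. Of the list, 18 had a negative log2 fold change, and the median was -0.11. Oprd1, the delta opioid receptor on which enkephalins act, fell by 0.39 in log2 units (SE 0.09, adjusted p = 0.0236 in edgeR). It was at 14.9 to 18.2 CPM in the void libraries and at 10.9 to 14.1 CPM in the DHT libraries, with no overlap. All DHT libraries lay below all void libraries in 0.88% of genes tested. The mu opioid receptor gene Oprm1 was at -0.35 (SE 0.17, adjusted p = 0.323 in edgeR), and Tacr1, the receptor for substance P, at -0.39 (SE 0.24, adjusted p = 0.479 in edgeR). Ppp3ca, Cpe and Gnas were the most abundant of the list at means of 1658, 1543 and 879 CPM. Ppp3ca encodes the calcineurin subunit that dephosphorylates DARPP-32, and its log2 fold change was -0.03 (SE 0.06).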

How the data were processed

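Bulk RNA-seq counts from 10 mouse hippocampi, 1 library per mouse, were used. Per the study's methods and the submitters' processing notes, the authors trimmed and filtered paired-end reads with HTStream, aligned them with STAR 2.7.10b and deposited a table of raw counts. The methods name mm10 and the processing notes mm39 as the genome, so no coordinates were taken for the counts. The annotation release and the handling of strand and multiply mapped reads are not given in the sources used here. Penk and Ppp1r1b have an opposite-strand neighbour in GENCODE M21, each at a mean under 1 CPM.

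Symbols were matched by Ensembl identifier without its version (51948 of 56884 identifiers). Groups came from sample titles. In R 4.3.3, edgeR 4.0.16 was run with TMM and filterByExpr on the groups. Its quasi-likelihood test was adjusted by the Benjamini-Hochberg method over 17622 genes, and calls needed an adjusted p under 0.05. The SE is the size of the log2 fold change over the root of F. Mice are the replicates. DESeq2 1.42.0 was an alternative. Both were tested on simulated data. Log2 CPM used a prior count of 2. Exon lengths came from GENCODE M21. Promoters came from RefSeq (GRCm38.p6).

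Named were the 9 members, genes on which a sentence about single libraries rests, and genes picked by likeness. Those were the 5 genes with the highest Pearson correlation to Drd2, Ppp1r1b and the means of striatal and thalamic members. They had a mean of at least 1 CPM. Each list also gave its 3 most abundant genes, apart from the choroid plexus and microglia lists, of which no gene was named. Genes of the other lists with an adjusted p under 0.05 were named too, except 1 of the neocortical list. The members and lists were chosen with earlier results of these data known. The alternatives were another count model, normalizations, filters, a choroid plexus covariate and leaving out each mouse. Leaving out void 5 and DHT 6 together was added after the data were seen. The results for 2 genes of the lists are not reported here.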

Additional observations from a re-analysis of the deposited data

Results flagged for a closer look

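Within a treatment group, a library was marked when its gap to the nearest other library exceeded 0.71 of the range of the 5. This occurred 4 times in 44 groups examined. For items picked without knowledge of their values, about 2.2 would be marked by chance. The members and lists were picked with earlier results of these data known, so the counts cannot be compared. Drd2 was marked in DHT 6, highest of its group with a ratio of 0.942. Tcf7l2 was marked in DHT 1, highest with a ratio of 0.776. Tac1 was marked in void 5, highest with a ratio of 0.76. The mean log2 CPM of the hippocampal principal neuron list was marked in void 5, lowest with a ratio of 0.747. The list genes move together and void 5 appears in a pair of them, so these marks are not independent.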

How the results depend on the processing

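No paired analysis was possible because only number 5 occurs in both groups, and nothing ties these animals together. The number of genes higher with DHT, 920, was 0 with the choroid plexus covariate and ranged from 351 (without void 11) to 1072 when each mouse was left out (552 without void 10, 493 without void 4, 395 without DHT 1 and 518 without DHT 3). The number lower, 46, was 266 with DESeq2, 0 with the covariate and 5 to 77 when each mouse was left out. The covariate had r = 0.79 with treatment group, so its fit cannot tell plexus content from treatment. The count of members higher with DHT, 1, was 0 with the covariate, 0 without both void 5 and DHT 6 and 0 to 1 when each mouse was left out. With the median in place of the mean, the difference over striatal members was -0.074 and that over the striatal companions, 0.20 by the mean, was -0.16. Of 153 member values under alternatives, 135 kept their sign and side of the threshold, 4 lost the call (all Ppp1r1b) and 14 changed sign, none of them called. With the covariate the sign changed for Drd1 (0.22), Tac1 (0.14), Rgs9 (0.12) and Tcf7l2 (0.48). Without both void 5 and DHT 6 it changed for Tac1 (0.091), Drd2 (-0.12) and Tcf7l2 (0.14). With each mouse left out, the log2 fold change ran from -0.26 to 0.054 for Tac1 (positive without void 5), from -0.019 to 0.62 for Drd2 (negative without DHT 6), from -0.098 to 0.0090 for Rgs9 (positive without void 10 or DHT 2) and from -0.37 to 0.12 for Tcf7l2 (positive without void 10, void 5 or DHT 2). The cause was not tested. The low counts of Adora2a, Gbx2 and Lhx8 limit what these libraries can show.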

Other observations

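Other lists showed the same libraries apart. On the list of neocortical neuron markers, void 5 was highest for 6 of 12 genes, against 14.2% of all genes tested. Cux2, an upper-layer transcription factor, was at 67.3 CPM in void 5 and at 32.7 to 45.2 CPM in the other libraries, and Lamp5 at 57.0 against 27.9 to 35.5 CPM. Bcl11b, Hs3st4 and Tshz2 were the most abundant, at means of 227, 123 and 119 CPM, and the adjusted p of each was above 0.05. Of the 12 genes, 0 were higher and 1 lower with DHT in edgeR. Over all genes tested, 5.22% were higher and 0.261% lower. At an unadjusted p under 0.05, 0 were higher and 3 lower, and DESeq2 called 0 higher and 1 lower. There were 10 negative log2 fold changes, and the median was -0.19. The summed level was 722 to 834 CPM with void and 629 to 715 CPM with DHT. The part of neocortical tissue in these levels was not tested.

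On the cholinergic list, where 3 of 8 genes were tested and 0 called in edgeR (1 at an unadjusted p under 0.05) or DESeq2 (0), Slc5a7, the choline transporter, was at 4.99 CPM in void 5 and at 0.838 to 1.79 CPM elsewhere. Zic5 and Ngfr, at means of 8.15 and 3.29 CPM, were highest in DHT 6. Of the 12 inhibitory interneuron genes 0 were called in edgeR (0 at an unadjusted p under 0.05) and 0 in DESeq2, among them Gad1, Gad2 and Cck at means of 364, 251 and 141 CPM. DHT 1 was lowest for 8 of these 12, where it was lowest for 11.7% of all genes tested. Of 9 genes of newly formed oligodendrocytes 8 were tested, and Enpp6 was higher with DHT (log2 fold change 0.51, SE 0.13, adjusted p = 0.0424 in edgeR). Thus 1 of the 8 was called higher, where 5.22% of all genes tested were. Bcas1, Gpr17 and Itpr2, the most abundant of that list at means of 196, 49.6 and 47.4 CPM, did not pass.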
